A study of Mus musculus with 9 samples.

Results

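Ppara encodes PPAR-alpha, the nuclear receptor that switches on fatty acid burning in the fasted liver, and the genes described here are Ppara, its coactivator gene Ppargc1a and 7 of its well-known target genes: Angptl4, Cpt1a, Pdk4, Fgf21, Vnn1, Cyp4a10 and Cyp4a14. The 9 genes were taken by symbol from liver RNA-seq tables that list 23440 genes once, and all 9 were found. The set was chosen by the group levels of Ppara, Angptl4 and Cpt1a in these same libraries, which were already known to differ, so the differences of these 3 genes are given as a description, with no p-value. In treated against untreated aged livers, Angptl4, Ppara and Cpt1a were 3.11, 1.86 and 1.54 times as high, whereas the classical targets Cyp4a10 and Cyp4a14 were 0.739 and 0.700 times as high, with groups that overlapped. The coactivator Ppargc1a was lower in treated than in untreated aged livers, at levels below 1 TPM throughout.

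The livers came from C57Bl6 mice. The first group, aged PD-0332991, was 20 to 22 months old and ate chow with the drug at 450 mg/k (the unit as the labels write it) for the last 2 weeks of life. The second group, aged untreated, was of the same age and ate standard chow, and the third, young untreated, was 2 months old on standard chow. PD-0332991 (palbociclib) inhibits CDK4 and CDK6, a pair of kinases that drive cells into division, and the study's title links Cdk4 to fatty liver of old age. Each group had 3 libraries of total liver RNA. No group of young treated mice was analysed here, so an effect of the drug at the younger age was not measured. Whether the libraries came from separate mice is not stated in the labels, so a p-value measures the spread between these libraries. The values are TPM, an abundance scaled by transcript length and to the same total in every library, which allows levels of different genes to be compared. TPM keeps no read depth, so the depth behind each value is unknown. In bulk liver RNA, fewer cells of a type and less RNA per cell cannot be told apart.

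PPAR-alpha binds fatty acids, pairs with the retinoid X receptor and activates genes at direct repeats of a short nuclear receptor half-site. In a fasting liver it turns on import of fatty acids into mitochondria, their oxidation in mitochondria, peroxisomes and microsomes, and ketone body production, and it raises the secreted proteins ANGPTL4 and FGF21. ANGPTL4 inhibits lipoprotein lipase, CPT1A carries out the rate-limiting step of mitochondrial fatty acid entry, PDK4 restrains pyruvate oxidation, and the CYP4A enzymes hydroxylate the tail end of fatty acids. Several of these genes also answer to other signals, such as glucagon, glucocorticoids, the clock and cell stress.

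The 9 libraries were alike in general measures. They held 9543 to 9989 genes at 1 TPM or more, and the listed genes made up 53.1 to 57.7% of the TPM scale. The liver label fitted the markers: the summed level of 16 hepatocyte genes was 62223 to 65813 TPM in aged PD-0332991, 61139 to 67659 TPM in aged untreated and 62734 to 67077 TPM in young untreated libraries, although Alb was listed at 0 in all 9. Marker genes of skeletal muscle summed to at most 1.81 TPM and those of kidney to at most 0.623 TPM, while those of pancreas summed to 17.5 to 34.0 TPM, of which Cela1 made up most. The circadian clock gene Dbp was at 6.99, 27.7 and 21.9 TPM in aged PD-0332991, at 0.645, 0.576 and 14.3 TPM in aged untreated and at 14.0, 14.8 and 6.51 TPM in young untreated libraries. Aged untreated libraries 1 and 2 thus stood apart from the other 7 in Dbp, and the differences of the members were also computed with aged untreated library 3 alone.

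Ppara (chr15:85734983-85802819, plus strand, GRCm38) was at 20.0, 22.4 and 19.8 TPM in aged PD-0332991 livers, at 9.83, 9.83 and 13.8 TPM in aged untreated livers and at 21.3, 19.5 and 19.7 TPM in young untreated livers. All 3 treated values lay above all 3 untreated aged values and within or just above the range of the young ones. The mean was 20.7 ± 1.43 TPM in aged PD-0332991, 11.1 ± 2.29 TPM in aged untreated and 20.1 ± 0.989 TPM in young untreated livers (SD, n = 3 each). The log2 fold change was 0.88 ± 0.13 for treated against untreated aged, -0.84 ± 0.13 for aged against young and 0.04 ± 0.13 for treated aged against young livers (± SE from the limma fit on log2(TPM + 0.5), a scale that understates changes of low genes). Leaving out any 1 library of the pair compared gave 0.80 to 1.04, -1.0 to -0.76 and -0.01 to 0.08 for these 3 differences. Both comparisons with the aged untreated group share its 3 libraries, so the higher level with the drug and the lower level with age are not separate observations.

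**Figure D1:**
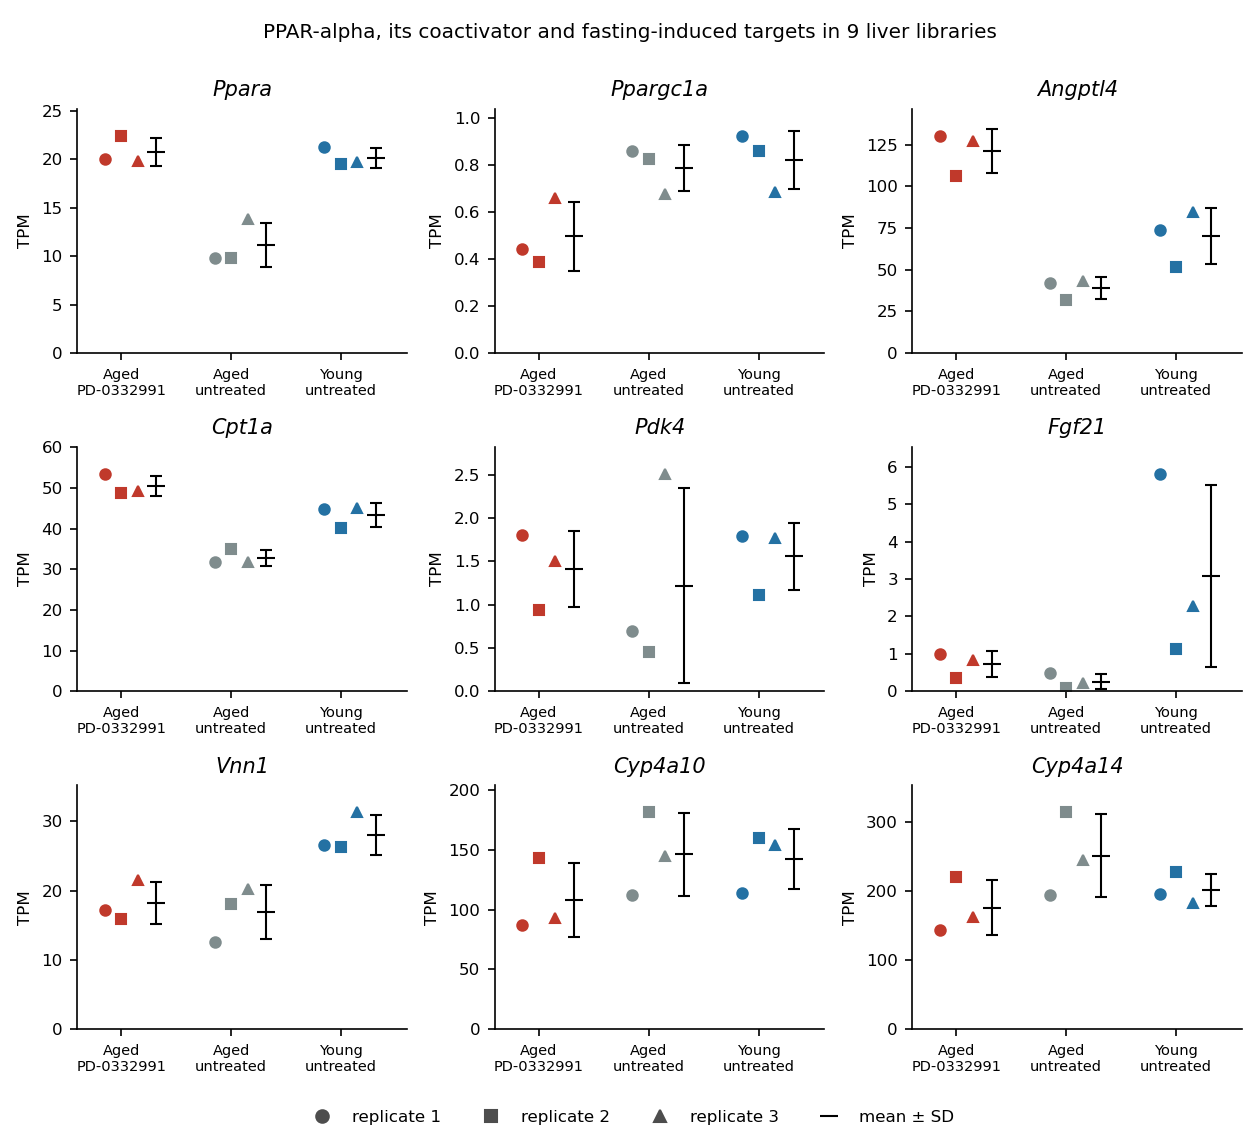
TPM of each of the 9 genes (linear vertical axes from 0) in aged PD-0332991 (red, left), aged untreated (grey) and young untreated livers (blue, right); each point is 1 library and bars give the mean ± SD of 3. Ppara, Angptl4 and Cpt1a in aged PD-0332991 livers lie above aged untreated livers with no overlap, Fgf21 and Vnn1 in both aged groups lie below young livers, and the ranges of Cyp4a10 and Cyp4a14 overlap in every pair of groups.

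Ppargc1a (chr5:51454250-51567726, minus strand) encodes PGC-1alpha, which binds PPAR-alpha and boosts mitochondrial and gluconeogenic genes. It was at 0.442, 0.386 and 0.662 TPM in aged PD-0332991 livers, at 0.863, 0.827 and 0.677 TPM in aged untreated livers and at 0.925, 0.861 and 0.685 TPM in young untreated livers. The highest treated value lay just below the lowest value of each other group, so the treated livers did not overlap with either, while aged untreated and young livers overlapped. Of all genes tested, 22.4% did not overlap between treated and untreated aged livers. In treated aged against young livers 24.4% were lower without overlap. With no library at 1 TPM it was left out of the test, which kept genes at 1 TPM or more in at least 3 libraries. Fitted without that filter, its log2 fold change was -0.38 ± 0.15 for treated against untreated aged livers, with a limma adjusted p of 0.286. For treated aged against young livers it was -0.42 ± 0.15 with a limma adjusted p of 0.168, so neither difference passed. Ppara and its coactivator thus had opposite signs in treated against untreated aged livers, where 66.7% of all genes tested were below 0.

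Of the remaining 8 genes, which all passed the filter on low values, 3 were called in treated against untreated aged livers at a limma adjusted p under 0.05, all higher, against a background of 1.45% of 10161 genes tested (0.61% higher and 0.837% lower). These were Ppara, Angptl4 and Cpt1a, the genes that the set was built around, and nothing is read from their number. The same 3 were the members whose groups did not overlap, against 22.4% of all genes tested (5.72% higher without overlap). The count was 1 without aged PD-0332991 replicate 2, where 7 of 10115 genes were called, and 1 without replicate 3, where 12 of 10117 were. In aged against young livers 1 of the 8 was called, Ppara as lower, where 1.1% of all genes were called (0.65% higher and 0.453% lower). Against young livers, treated aged livers had 1 member called, Angptl4 as higher, where 6.88% of all genes were called (2.59% higher and 4.29% lower). Ppara and Angptl4 are among the genes on which the set was chosen, so nothing is read from these counts either. When 1 library was left out, 0 to 4 members were called in aged against young livers and 0 to 1 in treated aged against young livers. Over all genes these fits called 15 to 696 and 151 to 473 genes.

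Angptl4 (chr17:33773750-33781830, minus strand) encodes the secreted inhibitor of lipoprotein lipase that holds triglyceride in the blood during fasting. It was at 130, 106 and 127 TPM in aged PD-0332991 livers, at 42.1, 31.6 and 43.1 TPM in aged untreated livers and at 73.6, 51.7 and 84.8 TPM in young untreated livers. The 3 groups did not overlap in any pair: treated livers were highest, young livers in between and untreated aged livers lowest. Its log2 fold change was 1.63 ± 0.18 for treated against untreated aged, -0.82 ± 0.18 for aged against young and 0.81 ± 0.18 for treated aged against young livers. With 1 library left out these ran over 1.49 to 1.72, -1.02 to -0.67 and 0.61 to 0.96. Unlike Ppara, whose treated and young ranges overlapped, Angptl4 in treated livers stood above the young level as well.

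Cpt1a (chr19:3322334-3385733, plus strand), the gate for long-chain fatty acids into liver mitochondria, followed the same order over a narrower range. It was at 53.4, 48.8 and 49.3 TPM in aged PD-0332991 livers, at 31.6, 35 and 31.7 TPM in aged untreated livers and at 44.9, 40.0 and 45.1 TPM in young untreated livers. Again no pair of groups overlapped. On the log2 scale the difference was 0.62 ± 0.09 for treated against untreated aged, -0.40 ± 0.09 for aged against young and 0.22 ± 0.09 for treated aged against young livers, and with 1 library left out the first of these stayed between 0.58 and 0.66. The ratio of Angptl4 to Cpt1a TPM was 2.44, 2.17 and 2.58 in aged PD-0332991 livers, 1.33, 0.904 and 1.36 in aged untreated livers and 1.64, 1.29 and 1.88 in young untreated livers. The treated livers did not overlap with either other group in that ratio, so Angptl4 was higher with the drug relative to Cpt1a as well as in level.

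The base sequence before the transcription start of Cpt1a is shown because it stood above untreated aged livers together with Ppara, and Fgf21 is set beside it as a target that stayed below the young level in treated livers. Both windows are the 250 bases before the start on the gene's own strand in RefSeq's GRCm38.p6, Cpt1a at chr19:3323051-3323300 (plus strand, 16 of its bases in an annotated exon) and Fgf21 at chr7:45615491-45615740 (minus strand, upstream of the gene). Capitals in Cpt1a mark TGACCT at -94, the nuclear receptor half-site AGGTCA read on the other strand, and a CCAAT box at -19. Capitals in Fgf21 mark the E-box CACGTG at -50 and a TATAAA box at -28.
Cpt1a: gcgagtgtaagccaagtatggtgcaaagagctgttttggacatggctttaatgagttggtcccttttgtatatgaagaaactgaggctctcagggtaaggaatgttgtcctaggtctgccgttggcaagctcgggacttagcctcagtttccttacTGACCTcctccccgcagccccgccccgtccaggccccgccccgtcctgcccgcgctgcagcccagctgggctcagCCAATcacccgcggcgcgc
Fgf21: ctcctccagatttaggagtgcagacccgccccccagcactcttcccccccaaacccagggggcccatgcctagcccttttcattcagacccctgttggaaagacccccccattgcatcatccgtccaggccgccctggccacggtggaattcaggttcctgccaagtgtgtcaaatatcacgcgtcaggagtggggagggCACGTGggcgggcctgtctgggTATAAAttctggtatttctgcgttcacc
Of 32851 RefSeq promoter windows of this length, 14% held AGGTCA on either strand, 33.8% CCAAT or ATTGG, 6.02% CACGTG and 12.4% TATAAA on either strand. The full direct repeat with 1 base between the half-sites (AGGTCA in tandem, both strands) was in 0.0335% of windows and in none of the 5 members matched in the table, which were Ppara, Ppargc1a, Cpt1a, Pdk4 and Fgf21. A match describes letters only, and a missing match says only that these letters are not in the window.

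Pdk4 (chr6:5483351-5496309, minus strand), a kinase that turns down pyruvate dehydrogenase so that fat is burned in place of glucose, did not separate the groups. It was at 1.80, 0.940 and 1.5 TPM in aged PD-0332991 livers, at 0.698, 0.451 and 2.51 TPM in aged untreated livers and at 1.79, 1.11 and 1.77 TPM in young untreated livers. Aged untreated library 3 held the highest value of all 9 and its 2 companions the lowest, so that group spanned the others. The log2 fold change was 0.32 ± 0.38 for treated against untreated aged livers (limma adjusted p = 0.706) and -0.43 ± 0.38 for aged against young livers (limma adjusted p = 0.647). Without aged untreated library 3 the aged against young difference was -0.93 with a limma adjusted p of 0.0399, where 696 of 10080 genes were called. Over the fits that left out 1 library, that difference ran from -0.93 to -0.10 and its limma adjusted p reached 0.942. With aged untreated library 3 alone as the untreated aged group the drug difference was -0.68.

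Fgf21 (chr7:45613886-45615490, minus strand) encodes a liver hormone that PPAR-alpha raises in fasting and ATF4 raises under stress. It was at 1.0, 0.348 and 0.839 TPM in aged PD-0332991 livers, at 0.477, 0.0808 and 0.220 TPM in aged untreated livers and at 5.80, 1.13 and 2.28 TPM in young untreated livers. Both aged groups lay below all 3 young values, and they overlapped with each other. The log2 fold change was 0.69 ± 0.44 for treated against untreated aged livers (limma adjusted p = 0.443), -2.04 ± 0.44 for aged against young livers and -1.35 ± 0.44 for treated aged against young livers. With 1 library left out the last 2 ran from -2.50 to -1.52 and from -1.81 to -0.83. Only 1 library of the aged PD-0332991 group and the 3 young libraries held Fgf21 at 1 TPM or more, so its place among the fitted genes came from the group in which it was high, and its differences from that group are given with no p-value.

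Vnn1 (chr10:23894688-23905343, plus strand), which encodes a pantetheinase and is one of the PPAR-alpha targets of mouse liver, also set the aged livers apart from the young ones. It was at 17.2, 15.8 and 21.5 TPM in aged PD-0332991 livers, at 12.6, 18.0 and 20.2 TPM in aged untreated livers and at 26.5, 26.2 and 31.3 TPM in young untreated livers. All 6 aged libraries, treated or not, lay below the 3 young ones, and the aged groups overlapped. Of all genes tested, 9.57% were lower without overlap in aged against young livers and 24.4% in treated aged against young livers. The log2 fold change was 0.11 ± 0.17 for treated against untreated aged livers (limma adjusted p = 0.769), -0.73 ± 0.17 for aged against young livers (limma adjusted p = 0.0711) and -0.61 ± 0.17 for treated aged against young livers (limma adjusted p = 0.0535). None of these passed the threshold. The aged against young difference was -0.86 with a limma adjusted p of 0.0106 without aged untreated library 3, where 696 of 10080 genes were called. Over the fits that left out 1 library, that difference ran from -0.86 to -0.54 and its limma adjusted p reached 0.226.

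Cyp4a14 (chr4:115486200-115496142, minus strand) and Cyp4a10 (chr4:115518264-115533649, plus strand) are neighbours in a cluster of fatty acid hydroxylase genes and serve as the standard readout of PPAR-alpha agonists in mice. Cyp4a14 was at 144, 221 and 163 TPM in aged PD-0332991 livers, at 195, 315 and 246 TPM in aged untreated livers and at 197, 228 and 183 TPM in young untreated livers. Cyp4a10 was at 87.3, 143 and 93.2 TPM in aged PD-0332991 livers, at 112, 181 and 145 TPM in aged untreated livers and at 114, 160 and 154 TPM in young untreated livers. For both genes the ranges overlapped in every pair of groups, and library 2 held the highest value of each group. The log2 fold change for treated against untreated aged livers was -0.51 ± 0.19 for Cyp4a14 (limma adjusted p = 0.195) and -0.44 ± 0.23 for Cyp4a10 (limma adjusted p = 0.33). Neither passed, and for both genes the sign was the opposite of that of Ppara, Angptl4 and Cpt1a. For aged against young livers it was 0.29 ± 0.19 for Cyp4a14 (limma adjusted p = 0.506) and 0.03 ± 0.23 for Cyp4a10 (limma adjusted p = 0.973).

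The Cyp4a10 value carries a further uncertainty, because the neighbouring genes Cyp4a31 (chr4:115563649-115579015) and Cyp4a32 (chr4:115600969-115621602) are near copies of it. Of the 31-base words of the Cyp4a10 transcript, 45.5% also occur in transcripts of other genes, against 2.07% for Cyp4a14 and 2.72% or less for the other members. The coding sequence of Cyp4a10 was identical to that of Cyp4a31 at 96.6% and to that of Cyp4a32 at 97.2% of bases. The 63 coding bases around the codon of the heme-binding cysteine are printed to show this, from GENCODE vM21 transcripts, with capitals in Cyp4a14 for the 8 bases that differ from Cyp4a10. Cyp4a31 and Cyp4a32 have the same letters there as Cyp4a10.
Cyp4a10: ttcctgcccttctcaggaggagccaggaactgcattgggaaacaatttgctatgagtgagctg
Cyp4a14: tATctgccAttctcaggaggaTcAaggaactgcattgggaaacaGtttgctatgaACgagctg
Summed over Cyp4a10, Cyp4a31 and Cyp4a32, the level was 104, 164 and 113 TPM in aged PD-0332991 livers, 128, 203 and 161 TPM in aged untreated livers and 134, 179 and 176 TPM in young untreated livers. The sum was ordered like Cyp4a10 alone, with overlap in every pair of groups. Cyp4a14, which shares few such words with other genes, had the same sign as Cyp4a10 in treated against untreated aged livers.

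**Figure D2:**
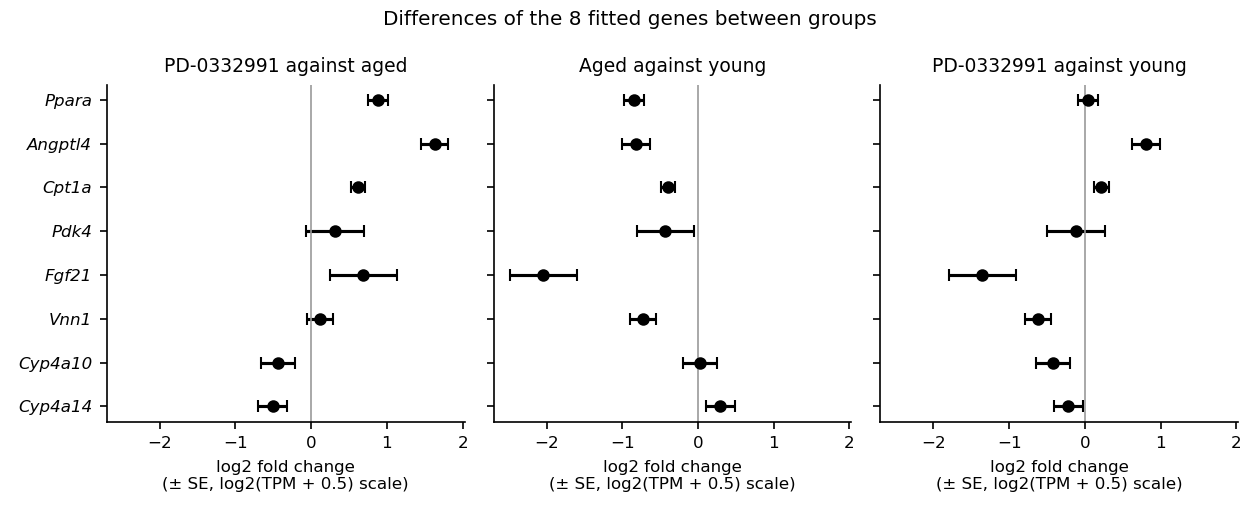
Log2 fold change (horizontal axes, log2(TPM + 0.5) scale, ± SE from limma) of the 8 genes fitted, for aged PD-0332991 against aged untreated (left), aged untreated against young untreated (middle) and aged PD-0332991 against young untreated livers (right). In the left panel Angptl4, at 1.63, is farthest above 0 and Cyp4a14, at -0.51, farthest below, and in the middle panel Fgf21, at -2.04, is the lowest.

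The 5 fitted members other than Ppara, Angptl4 and Cpt1a had 3 log2 fold changes above 0 and 2 below in treated against untreated aged livers, with a median of 0.11 where that of all genes was -0.09. Scaling by the median of ratios moved the median of all genes by about 0.1 or less toward 0, to -0.0023 in treated against untreated aged livers and to -0.00072 in treated aged against young livers, and changed no count of members called.

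Cyp4a14 was the highest of the 9 in every library, Cyp4a10 held places 2 and 3, Angptl4 places 2 to 4 and Cpt1a places 3 and 4. Ppara and Vnn1 held places 5 and 6, and Pdk4, Fgf21 and Ppargc1a shared places 7 to 9. The place of Angptl4 moved most among the abundant members: the ratio of Cyp4a14 to Angptl4 TPM was 1.11, 2.09 and 1.29 in aged PD-0332991 livers, 4.64, 9.95 and 5.70 in aged untreated livers and 2.67, 4.41 and 2.16 in young untreated livers. Every treated liver had a lower ratio than every other liver. Vnn1 lay above Ppara in all 3 young livers, and the ranges of the pair overlapped in treated aged livers. Fgf21 lay above Ppargc1a in all 3 young livers, below it in all 3 untreated aged livers, and overlapped with it in treated aged livers.

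Similarity of profile was described for each fitted member by the root mean square difference of centred log2 values over the 9 libraries, among 10160 other genes. The nearest to Ppara were Slc38a2 at 0.101, Lgals4 at 0.128 and Hykk at 0.160, where the values of Ppara itself spread around their mean by 0.430. Slc25a47 (0.220), H2-K2 (0.283) and Elovl6 (0.285) came nearest to Angptl4, and Ulk1 (0.0841), Il15ra (0.104) and Zfp259 (0.110) to Cpt1a. Vnn1 had Glt28d2 (0.101), Keg1 (0.111) and Sparc (0.135), and Pdk4 had Spsb4 (0.200), Robo4 (0.241) and Slc7a2 (0.255). Fgf21 had no near profile, with Dpt (0.575), Lyve1 (0.613) and Col3a1 (0.619) as the closest. Within the set, Cyp4a14 was the 7th nearest gene to Cyp4a10, at 0.175, with Rrm1 (0.143) nearest, and Cyp4a10 was the 12th nearest to Cyp4a14, with Dhx37 (0.116) nearest. Cpt1a was the 49th nearest to Ppara, at 0.248, and Ppara the 29th nearest to Angptl4, at 0.426. Genes close in this measure share the 9 libraries and their scaling, and the measure carries no test.

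Of 47 further target genes of PPAR-alpha, 46 were tested. In treated against untreated aged livers 1 was called as higher and 0 as lower by limma, where 0.61% of all genes were called as higher and 0.837% as lower. At an unadjusted p under 0.05, which 18.2% of all genes reached, 4 of the 46 were higher and 6 lower. The median log2 fold change of the 46 was -0.05 (all genes -0.09) with 19 above 0 and 27 below, a balance that turned to 28 above and 18 below, with a median of 0.04, under median-of-ratios scaling. The gene called was Plin2, the coat protein of liver lipid droplets. It was at 491, 386 and 374 TPM in aged PD-0332991 livers, at 198, 174 and 256 TPM in aged untreated livers and at 314, 284 and 314 TPM in young untreated livers. The treated livers lay above both other groups, and the difference on the log2 scale against untreated aged livers was 1.0 ± 0.15 (limma adjusted p = 0.0156). That call was lost without aged PD-0332991 replicate 2 (limma adjusted p = 0.0704) or replicate 3 (limma adjusted p = 0.0522). Over all genes these fits called 7 of 10115 and 12 of 10117. The most abundant uncalled targets were Fabp1, the liver fatty acid carrier, which differed on the log2 scale by 0.15 ± 0.30 (limma adjusted p = 0.833), and Acaa2, a thiolase of mitochondrial oxidation, at -0.11 ± 0.09 (limma adjusted p = 0.534).

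In aged against young livers none of the 46 was called by limma, with 1 higher and 13 lower at an unadjusted p under 0.05, which 15% of all genes reached. Their median was -0.17 (all genes -0.01), with 35 of 46 below 0. Without aged untreated library 3, 8 were called as lower, where 696 of 10080 genes were called, 377 of them higher. With that library alone as the aged group the median was -0.04 and 26 of 45 were below 0.

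Set against young livers, treated aged livers had 1 of the 46 called as higher and 6 as lower, with a median of -0.24 (all genes -0.10), where 2.59% of all genes were called as higher and 4.29% as lower. The counts were 2 higher and 3 lower, with a median of -0.13, under median-of-ratios scaling, and 0 to 1 higher and 2 to 4 lower when 1 library was left out. With only the groups compared in the fit they were 2 higher and 12 lower, where 1293 of 9902 genes were called, 433 of them higher. Ehhadh, the bifunctional enzyme of peroxisomal oxidation, was at 70.3, 66.1 and 66.9 TPM in aged PD-0332991 livers and at 123, 90.7 and 124 TPM in young untreated livers. Its log2 fold change was -0.72 ± 0.13 (limma adjusted p = 0.00959), and no treated library reached the lowest young one. Decr2, a peroxisomal reductase for unsaturated fatty acids, was at 68.6, 70.2 and 72.2 TPM in aged PD-0332991 livers and at 111, 101 and 110 TPM in young untreated livers. Its log2 fold change was -0.61 ± 0.11 (limma adjusted p = 0.00949). These 2 calls stood in each of the 6 fits that left out 1 library. Age and drug both differ in this comparison, so their parts cannot be told apart in it.

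Retsat, a retinol saturase, at -0.63 (limma adjusted p = 0.0114), and Acsl1, which activates long-chain fatty acids, at -0.50 (limma adjusted p = 0.0352) were called as lower too, as was Hadha, outside the naming rule, at -0.35. Cd36, a fatty acid uptake receptor, was called as higher in treated aged livers, at 10.6, 17.1 and 14.8 TPM, than in young untreated livers, at 5.65, 7.66 and 7.57 TPM (log2 fold change 0.96 ± 0.19, limma adjusted p = 0.015). Its log2 fold change was 0.71 ± 0.19 for untreated aged against young livers (limma adjusted p = 0.102). For treated against untreated aged livers it was 0.25 ± 0.19 (limma adjusted p = 0.515). Leaving out 1 library took the call away in 2 of 6 fits for Retsat, 3 of 6 for Cd36 and 5 of 6 for Acsl1. In treated aged livers Ppara overlapped with the young range. Ehhadh, Decr2, Vnn1 and Fgf21 lay below every young library, where 24.4% of all genes tested were lower without overlap. Angptl4, Cpt1a, Plin2 and Cd36 lay above every young library, and the share of all genes that did so is not given here. The set was chosen on Angptl4 and Cpt1a, and Fgf21 passed the filter mainly through the young libraries. Nothing is therefore read from how many genes lay on either side.

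**Figure D3:**
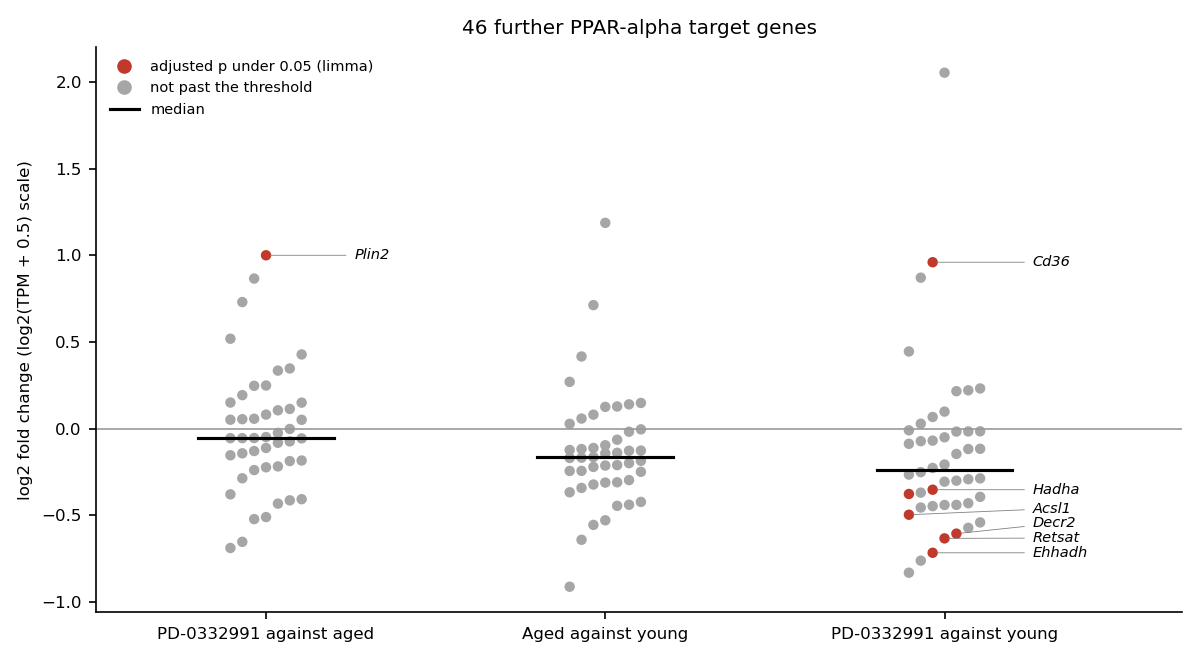
Log2 fold change (vertical axis, log2(TPM + 0.5) scale) of 46 PPAR-alpha target genes other than the 9, for aged PD-0332991 against aged untreated (left), aged untreated against young untreated (middle) and aged PD-0332991 against young untreated livers (right); red points passed an adjusted p of 0.05 in limma and black lines are medians of -0.05, -0.17 and -0.24. Plin2 is the 1 red point on the left, none is red in the middle, and 1 higher and 6 lower genes are red on the right, where the genes described in the text are named.

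Ketone body production, a pathway under PPAR-alpha, had 0 of 7 genes called by limma in treated against untreated aged livers, with 0 higher and 2 lower at an unadjusted p under 0.05 and a median of -0.29 (all genes -0.09). Against young livers, treated aged livers had 0 called as higher and 3 as lower, where 4.29% of all genes were called as lower, among them Acat1 at -0.68 ± 0.14 (limma adjusted p = 0.0179) and Bdh1 at -0.51 ± 0.13 (limma adjusted p = 0.0406). With median-of-ratios scaling 1 of these 3 calls was left, and the number called with 1 library left out was 0 or 1.

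Among the proteins that work with the receptor, 16 of 18 genes were tested and none was called by limma in treated against untreated aged livers, with 2 higher and 2 lower at an unadjusted p under 0.05. None was called in aged against young livers either, with 1 higher and 1 lower at an unadjusted p under 0.05. Rxra, the retinoid X receptor that pairs with PPAR-alpha, averaged 60.4 ± 1.03 TPM in aged PD-0332991, 59.7 ± 4.25 TPM in aged untreated and 58.7 ± 1.73 TPM in young untreated livers (SD, n = 3 each). In treated against untreated aged livers its log2 fold change was 0.02 ± 0.09, and the groups overlapped, where those of Ppara did not. Creb3l3, a liver factor that induces Fgf21 together with PPAR-alpha, was at 128, 137 and 128 TPM in aged PD-0332991 livers, at 102, 81.1 and 121 TPM in aged untreated livers and at 124, 133 and 116 TPM in young untreated livers. Its log2 fold change was 0.39 ± 0.13 in treated against untreated aged livers (limma adjusted p = 0.153). Hnf4a, a master regulator of hepatocyte genes, differed by 0.11 ± 0.22 on the log2 scale (limma adjusted p = 0.84). One coregulator was called in treated aged against young livers, Nr0b2, the small heterodimer partner, as higher at 1.23 ± 0.30 (limma adjusted p = 0.0475), a call lost in all 6 fits without 1 library.

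Of 23 paralogs of the members 14 were tested, and none was called by limma in treated against untreated aged livers, with 1 higher and 3 lower at an unadjusted p under 0.05. Ppard, which encodes the sister receptor PPAR-delta, was at 2.00, 1.54 and 1.80 TPM in aged PD-0332991 livers, at 3.08, 3.67 and 2.61 TPM in aged untreated livers and at 1.90, 1.43 and 1.19 TPM in young untreated livers. Untreated aged livers were the highest, with no overlap with either other group, which is the reverse of the order of Ppara. The log2 fold change of Ppard was 0.86 ± 0.18 for aged against young livers (limma adjusted p = 0.0453), lost in 5 of 6 fits without 1 library, and -0.66 ± 0.18 for treated against untreated aged livers (limma adjusted p = 0.0897).

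The genes through which ANGPTL4 and FGF21 act were taken as a list of 12. In treated against untreated aged livers 1 was called as higher and 2 as lower, where 0.61% of all genes were called as higher and 0.837% as lower. Apoa5, an apolipoprotein that aids triglyceride clearance, was at 918, 644 and 730 TPM in aged PD-0332991 livers, at 519, 397 and 511 TPM in aged untreated livers and at 552, 613 and 557 TPM in young untreated livers. Its log2 fold change in treated against untreated aged livers was 0.68 ± 0.14 (limma adjusted p = 0.0415). Fgfr4, a fibroblast growth factor receptor of hepatocytes, was at 9.38, 9.85 and 8.69 TPM in aged PD-0332991 livers, at 15.9, 17.4 and 15.5 TPM in aged untreated livers and at 13.1, 11.6 and 9.91 TPM in young untreated livers. Fgfr4 had a log2 fold change of -0.77 ± 0.12 in the same comparison (limma adjusted p = 0.016), and that of Fgfr3 was -0.96 ± 0.19 (limma adjusted p = 0.0342). Klb, the co-receptor of FGF21, averaged 4.59 ± 0.352 TPM in aged PD-0332991, 4.51 ± 0.247 TPM in aged untreated and 6.04 ± 0.674 TPM in young untreated livers (SD, n = 3 each). The 3 calls of this list, like all 8 named calls of the pathway lists with the drug, were lost without aged PD-0332991 replicate 2. In the same comparison that fit called 7 of 10115 genes, against 147 of 10161 with all libraries. Lpl, the lipase that ANGPTL4 inhibits, was called as lower in treated aged against young livers at -1.09 ± 0.24 (limma adjusted p = 0.0225), a call lost in 5 of 6 fits without 1 library.

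Clock genes differed between the libraries too. The clock gene Nr1d1, which encodes REV-ERB-alpha, was at 55.3, 59.3 and 58.3 TPM in aged PD-0332991 livers, at 12.5, 10.6 and 41.4 TPM in aged untreated livers and at 28.5, 30.9 and 24.6 TPM in young untreated livers. Of 18 clock genes tested by limma, 1 was called as higher and 1 as lower in treated against untreated aged livers (Per1 and Cry1), where 0.61% of all genes were called as higher and 0.837% as lower. In aged against young livers 3 were called as higher (Ccrn4l, Cry1 and Nfil3), where 0.65% of all genes were. With 1 library left out the first pair of calls was lost in 3 of 6 fits each, and the last 3 calls were lost in 4, 5 and 2 of 6 fits. Aged untreated libraries 1 and 2 were the lowest of the 9 in Nr1d1 and Dbp and also in Ppara, whereas aged untreated library 3 held the highest Ppara of its group. With library 3 alone as the untreated aged group, the log2 fold change in treated against untreated aged livers was 0.57 for Ppara, 1.47 for Angptl4, 0.66 for Cpt1a, -0.68 for Pdk4, 0.73 for Fgf21, -0.16 for Vnn1, -0.46 for Cyp4a10 and -0.50 for Cyp4a14. With that library alone, aged against young livers gave -0.53 for Ppara, -0.66 for Angptl4, -0.44 for Cpt1a, 0.57 for Pdk4, -2.09 for Fgf21, -0.46 for Vnn1, 0.04 for Cyp4a10 and 0.28 for Cyp4a14. Time of day and feeding at sampling are not in the labels, and their part in the result was not tested.

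**Figure D4:**
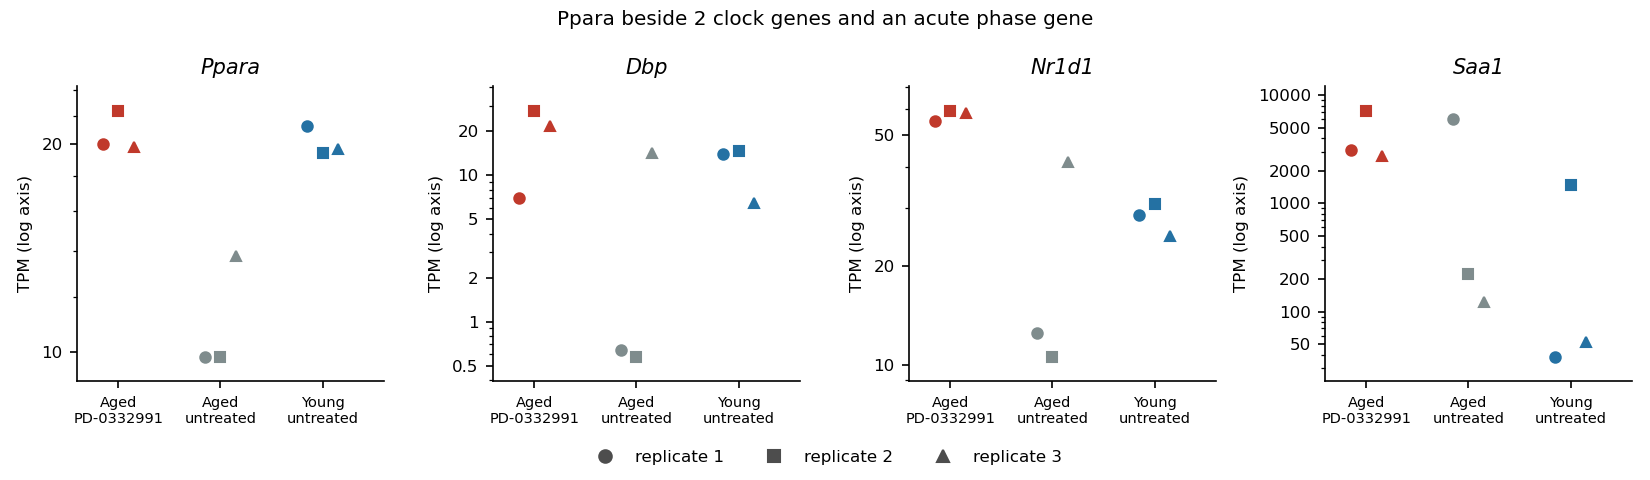
TPM (logarithmic vertical axes) of Ppara, the clock genes Dbp and Nr1d1 and the acute phase gene Saa1 in each library, with aged PD-0332991 in red (left), aged untreated in grey and young untreated in blue (right), and a marker shape for each replicate number. Aged untreated replicates 1 and 2 lie lowest in Ppara, Dbp and Nr1d1, and Saa1 runs from 38.3 to 7204 TPM, with aged untreated livers overlapping both other groups.

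Acute phase genes, which the liver makes in inflammation, were taken as a list of 23. All 23 had a log2 fold change above 0 in treated against untreated aged livers, in aged against young and in treated aged against young livers, with medians of 0.44, 0.69 and 1.23; the third difference is the sum of the first pair, so it is no further observation. With 1 library left out the medians ran from 0.24 to 1.0, from 0.30 to 0.93 and from 1.10 to 1.42. By limma 0 of 23 were called in the first, with 2 higher at an unadjusted p under 0.05, 0 in the second, with 5 higher at an unadjusted p under 0.05, and 4 as higher in the third, where 2.59% of all genes were. Without aged untreated replicate 1 the first count was 3, where 241 of 10102 genes were called. Without aged untreated replicate 3 the second was 11, where 696 of 10080 genes were called. The third was 0 to 3 with 1 library left out and 16 with only the groups compared, where 1293 of 9902 genes were called. With aged untreated library 3 alone, the median in aged against young livers was -0.12. Saa1 was at 3099, 7204 and 2730 TPM in aged PD-0332991 livers, at 6008, 222 and 123 TPM in aged untreated livers and at 38.3, 1482 and 52.3 TPM in young untreated livers. Its order within the untreated aged group differed from that of Ppara.

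Neutrophil marker genes summed to 25.0 to 35 TPM in aged PD-0332991, 9.94 to 26.6 TPM in aged untreated and 3.34 to 4.13 TPM in young untreated livers. All 3 of the genes tested, of 10 listed, were called as higher by limma in treated aged against young livers, where 2.59% of all genes were. These were S100a8, S100a9 and Retnlg. Retnlg, at 0.178, 0.576 and 0.204 TPM in young livers, passed the filter only through the aged groups, so nothing is read from its call. Among the untested genes Csf3r was higher without overlap, whereas Mpo, Elane, Ngp, Camp and Cxcr2 overlapped with young livers. Kupffer cell and macrophage genes summed to 166 to 169 TPM in aged PD-0332991, 165 to 236 TPM in aged untreated and 171 to 258 TPM in young untreated livers. Of the 12 tested, 5 were called as lower in treated aged against young livers, where 4.29% of all genes were. Hepatic stellate cell genes summed to 94.0 to 137 TPM in aged PD-0332991, 105 to 153 TPM in aged untreated and 144 to 151 TPM in young untreated livers, with 2 of the 11 tested called as lower in that comparison. Adipocyte marker genes, of interest because fat tissue expresses Angptl4 and Plin2 too, summed to 41.1 to 47.4 TPM in aged PD-0332991, 37.7 to 55.4 TPM in aged untreated and 38.4 to 52.7 TPM in young untreated livers. Pnpla2, at 19.5 to 27.2 TPM, was the highest gene of that list. Lep was listed at 0 in all 9 libraries, and Adipoq, Plin1 and Retn were at 0 in every aged library. Within this list Cidea was at 3.76, 4.42 and 3.85 TPM in aged PD-0332991 livers, at 0.497, 0.0986 and 7.77 TPM in aged untreated livers and at 0.071, 0 and 0 TPM in young untreated livers. Young untreated library 1, which held the highest Fgf21, also held the highest Cfd (6.16 TPM) and Adipoq (0.853 TPM). The part of inflammation or of other cell types in these results was not tested.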

How the data were processed

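Liver RNA from 9 libraries was prepared with an Illumina TruSeq kit and sequenced in paired ends, per the labels' protocols. The authors deposited a TPM table for each library; the submitters' processing notes name kallisto and mm10, and the annotation is not given in the sources used here. TPM is scaled per library and by transcript length and keeps no depth, so no counting interval can be given. Each table had 23444 rows, of which 4 with a repeated symbol were left out, and no pair of libraries held identical values.

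Differences were tested with limma 3.58.1 in R 4.3.3 on log2(TPM + 0.5), for the 10161 genes at 1 TPM or more in at least 3 libraries, in 1 model of all 9 libraries with intensity trend and robust variance, two-sided, with Benjamini-Hochberg adjustment over all genes tested and a threshold of 0.05. The script was checked on simulated data. The members and gene lists were chosen with earlier results of these data known, so no p-value is given for Ppara, Angptl4 and Cpt1a and none for a list. Of each of 10 pathway lists, the text draws on up to 6 called genes with the largest fold change and 2 uncalled genes with the highest mean TPM per comparison; other genes named (Rxra, Klb, Ppard in treated livers, Dbp, Saa1, Hadha) were picked after their values were seen. Of 296 list symbols, 288 were found as listed, 6 by a synonym, and 2 are not analysed here. Alternatives were other pseudocounts, filters and scalings, the groups compared alone, another variance model, the replicate block and leaving out each library; taking aged untreated library 3 alone was added after seeing the data. Gene positions and transcripts are from GENCODE vM21 (GRCm38), promoters from RefSeq (GRCm38.p6). Some list genes are not reported here by name.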

Additional observations from a re-analysis of the deposited data

How the results depend on the processing

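Of the values of members under the alternatives, 329 kept direction and side of the threshold, 14 passed it newly, 15 no longer passed and 11 changed sign; of those of named list genes, 526 kept both, 6 passed newly, 223 no longer passed and 6 changed sign. The cause was not tested for any of them.

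Every member call as reported was of Ppara, Angptl4 or Cpt1a, on which the set was chosen, so nothing is read from the counts below. With 3 members called as reported in treated against untreated aged livers, leaving out 1 library gave 1 to 3. In aged against young livers 1 was called as reported and 2 with log2(TPM + 0.1), where 111 of 10161 genes were called. With 1 library left out 0 to 4 were called, in fits that called 15 to 696 genes. Treated aged against young livers had 1 called as reported and 0 with no filter, where 495 of 16836 genes were called. There were 2 with a filter of 5 TPM (518 of 6198 genes called) and 2 with only the groups compared (1293 of 9902). With 1 library left out 0 to 1 were called, in fits that called 151 to 473 genes. Libraries share replicate numbers across groups, but deviations of same-numbered libraries correlated between -0.22 and 0.17 with both signs, so the numbers were not taken as pairs. With the replicate block 4 members were called in aged against young livers, where 91 of 10161 genes were called. In treated aged against young livers that block gave 3 members, where 492 of 10161 genes were called.

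Sign changes in treated against untreated aged livers were as follows. Pdk4 ran from -0.0150 to 0.82 and Vnn1 from -0.0759 to 0.25 with 1 library left out, and with aged untreated library 3 alone they gave -0.68 and -0.16. Hnf4a ran from -0.20 to 0.28 and Fabp1 from -0.10 to 0.44 with 1 library left out, and Fabp1 gave -0.43 with aged untreated library 3 alone. In aged against young livers Cyp4a10 ran from -0.14 to 0.20 with 1 library left out, and aged untreated library 3 alone gave 0.57 for Pdk4, -0.17 for Hnf4a and 0.00168 for Acaa2. Between treated aged and young livers Ppara ran from -0.0133 to 0.0809 and Pdk4 from -0.28 to 0.0799 with 1 library left out, and Pdk4 gave 0.0593 with quantile normalization.

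Over all genes, calls in treated against untreated aged livers numbered 147, of which 62 higher, and 165, of which 109 higher, with median-of-ratios scaling. Treated aged against young, they numbered 699, of which 263 higher, and 609, of which 359 higher, with that scaling.
TPM keeps no depth, so what depth limits cannot be read from these values.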

Other observations

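Genes that fasting raises through glucagon, FOXO1 and glucocorticoids, some of which share inducers with Pdk4 and Angptl4, were followed as a list of 22. In treated against untreated aged livers 1 was called as higher, where 0.61% of all genes were. This was Per1, a clock gene that glucocorticoids induce, at 3.64, 5.40 and 6.03 TPM in aged PD-0332991 livers and at 2.79, 1.59 and 2.45 TPM in aged untreated livers (log2 fold change 0.99 ± 0.21, limma adjusted p = 0.0424). Pck1, the gatekeeper of gluconeogenesis, was at 866, 813 and 1067 TPM in aged PD-0332991 livers and at 418, 235 and 797 TPM in aged untreated livers, a difference on the log2 scale of 1.09 ± 0.38 (limma adjusted p = 0.192). Against young livers, in treated aged livers Irs2, an insulin receptor substrate that fasting raises, was called as higher at 1.37 ± 0.23 (limma adjusted p = 0.00809) and kept the call in each of the 6 fits without 1 library. It was at 2.09, 3.16 and 2.94 TPM in aged PD-0332991 livers and at 1.22, 0.466 and 0.639 TPM in young untreated livers.

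Of 11 tested genes of the ATF4 stress response, which also induces Fgf21, 1 was called as higher and 1 as lower in treated against untreated aged livers. Of all genes, 0.61% were called as higher and 0.837% as lower there. Chac1, a glutathione-degrading enzyme and ATF4 target, was at 4.27, 4.24 and 2.99 TPM in aged PD-0332991 livers and at 0.902, 1.12 and 0.618 TPM in aged untreated livers, with no overlap (log2 fold change 1.65 ± 0.23, limma adjusted p = 0.0156). Atf4 itself was lower, at 68.8, 68.8 and 60.4 TPM in aged PD-0332991 livers against 87.2, 98 and 93.4 TPM in aged untreated livers (log2 fold change -0.49 ± 0.10, limma adjusted p = 0.0336). Both calls were lost without aged PD-0332991 replicate 2, where 7 of 10115 genes were called.

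Of 8 tested genes of the PPAR-gamma program that marks fatty liver, 0 were called by limma in treated against untreated aged livers, with 1 higher and 1 lower at an unadjusted p under 0.05. Against young livers, treated aged livers had Mogat1, an acyltransferase of triglyceride synthesis, called as higher at 0.99 ± 0.24 on the log2 scale (limma adjusted p = 0.0317, lost in 5 of 6 fits without 1 library), beside Cd36 as higher and Lpl as lower. Of all genes, 2.59% were called as higher and 4.29% as lower in that comparison. Pparg itself was at 5.17, 2.39 and 4.54 TPM in aged PD-0332991 livers, at 4.04, 4.25 and 7.03 TPM in aged untreated livers and at 12.4, 6.96 and 8.65 TPM in young untreated livers, a difference of -1.14 ± 0.30 between treated aged and young livers (limma adjusted p = 0.0505).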
